A study of Mus musculus with 6 samples.

Results

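Expression of X-zone genes and of steroid-reducing enzyme genes was examined in adrenal glands of adult female C57Bl/6J mice with or without developmental NMDAR antagonism. The members were Akr1c18, Pik3c2g, Thrb, Cyp17a1, Akr1b7, Srd5a1 and Srd5a2, and every probe set that the platform annotation pairs with exactly one of these symbols was taken. This gave 3 genes with 1 probe set each, Akr1c18, Thrb and Cyp17a1, of 14727 genes tested in all. Pik3c2g, Akr1b7, Srd5a1 and Srd5a2 were not analysed here. In the CGP group, dams received CGP 39551, a competitive antagonist of the NMDA type of glutamate receptor, by mouth at 5 mg/kg body weight from the start of pregnancy until their litters were weaned, and the female offspring were studied at 21 weeks of age. The Control group was age-matched and of the same strain and sex, and its labels name no vehicle. Each group comprised 3 Affymetrix arrays of RNA pooled from 18 mice. The labels do not say whether the arrays of a group shared a single pool, so the p-values describe the spread between arrays, which may be technical.

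The X-zone is the innermost layer of the mouse adrenal cortex, next to the medulla, and descends from the fetal cortex. It is lost at puberty in males and during the first pregnancy in females, and it shrinks slowly in females that do not breed. Akr1c18 encodes 20-alpha-hydroxysteroid dehydrogenase, which inactivates progesterone and is the classical marker of the layer. Thrb encodes thyroid hormone receptor beta, through which thyroid hormone acts on this layer. Cyp17a1 encodes the 17-alpha-hydroxylase and lyase needed for cortisol and androgens. It is active in the fetal adrenal and in the gonads, among other sites, and the adult mouse adrenal makes corticosterone with little of it. Of the other members, the product of Akr1b7 removes the aldehyde left by cholesterol side-chain cleavage, and the products of Srd5a1 and Srd5a2 are steroid 5-alpha-reductases.

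For orientation, RefSeq promoter entries (GRCm38.p6) were matched by symbol for 6 of the 7 members (not Cyp17a1), with 8 start sites among them. Those of the measured X-zone genes are shown as the 250 bases before the start, with capitals for TATAAA, the TATA box core. For Akr1c18 this is chr13:4150647-4150896 on the minus strand, and for Thrb, chr14:17981394-17981643 on the plus strand, the second of its 2 start sites.
Akr1c18: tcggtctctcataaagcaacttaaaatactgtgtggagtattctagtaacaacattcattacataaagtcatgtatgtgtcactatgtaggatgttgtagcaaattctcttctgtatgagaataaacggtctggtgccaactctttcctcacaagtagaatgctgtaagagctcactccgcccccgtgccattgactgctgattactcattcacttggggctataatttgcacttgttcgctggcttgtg
Thrb: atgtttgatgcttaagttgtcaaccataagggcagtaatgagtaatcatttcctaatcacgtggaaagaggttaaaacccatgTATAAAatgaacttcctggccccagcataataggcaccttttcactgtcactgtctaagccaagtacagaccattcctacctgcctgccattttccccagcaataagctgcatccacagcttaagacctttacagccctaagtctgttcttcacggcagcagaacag
Both strands were searched for TATAAA and for AAGGTCA, the core that the steroidogenic factor Nr5a1 recognises. Neither printed window holds both motifs. Neither occurs in the Akr1c18 window. The Thrb window holds TATAAA 167 bases before the start and no AAGGTCA, and the window at its other start site holds neither. Among the other windows not printed, that of Akr1b7 holds AAGGTCA 248 bases before the start. The second Pik3c2g window holds TATAAA 215 bases before the start, and the rest hold neither motif. Of 32851 such windows, 12.4% hold TATAAA and 4.08% hold AAGGTCA. A match is a description of the letters and not of a binding site.

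Of the 3 members, 1 was called: Cyp17a1 fell in the CGP group, whereas Akr1c18 and Thrb did not pass the test. Values are log2 expression, as deposited, and a gene was called at an adjusted p under 0.05 (limma, Benjamini-Hochberg over 16034 probe sets). Over all probe sets 3.53% were called, 1.59% as lower, and at 26.3% the 3 values of one group lay entirely above those of the other. An unadjusted p under 0.05 was also common. The limma p of Ppip5k1, a gene named below, was 0.0423 before adjustment and had rank 2829 of 16034 from the smallest. All 3 members had groups that did not overlap. In a whole gland, fewer cells of a type and less RNA per cell cannot be told apart.

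Akr1c18, the X-zone marker, had log2 values of 10.83, 10.59 and 10.45 on Control arrays 1 to 3 and of 10.17, 10.23 and 10.42 on CGP arrays 1 to 3. The groups were separate but nearly touched, since the lowest Control array and the highest CGP array differed by less than the spread within either group. The means were 10.62 ± 0.19 and 10.28 ± 0.13 (SD, n = 3 arrays each), a log2 difference of -0.35 (SE 0.10, 95% interval -0.59 to -0.11 before adjustment). This difference did not pass the test (limma adjusted p = 0.126). Akr1c18 was among the more variable genes between arrays of a group, with 5.56% of probe sets having a larger residual SD. Without Control array 1, its highest array, the difference was -0.24 (limma adjusted p = 0.122). The probe set stood above background on every array, with background taken from 127 olfactory, vomeronasal and trace amine receptor probe sets (their 75th percentile, 6.42 to 6.65).

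Thrb, the thyroid hormone receptor of the layer, lay at 8.38, 8.14 and 8.31 on the Control arrays and at 8.45, 8.56 and 8.47 on the CGP arrays. Here the CGP arrays were the higher ones, the opposite side from Akr1c18. The means were 8.28 ± 0.12 and 8.49 ± 0.06 (SD, n = 3 each), a log2 difference of 0.22 (SE 0.07, 95% interval 0.05 to 0.38 before adjustment). It did not pass the test either (limma adjusted p = 0.146). Differences of at least this size, in either direction, were not rare, since 8.74% of all probe sets had a larger one. Without Control array 2, its lowest array, the difference was 0.15 (limma adjusted p = 0.258). Thrb passed when arrays were weighted by quality (0.22, limma adjusted p = 0.0447), a setting under which 10.4% of all probe sets were called.

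Cyp17a1 had values of 9.34, 9.18 and 9.18 on the Control arrays and of 7.85, 8.03 and 7.89 on the CGP arrays. The gap between the groups was many times the spread within them. The means were 9.23 ± 0.10 and 7.92 ± 0.09 (SD, n = 3 each), so that expression was 2.48-fold lower in the CGP group (log2 difference -1.31, SE 0.07, 95% interval -1.47 to -1.15, limma adjusted p = 7.15e-05). This was the fifth largest decrease of the 16034 probe sets. All values lay above background. When any 1 array was left out, the difference lay between -1.36 and -1.26 and the call held (limma adjusted p up to 0.00108).

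**Figure D1:**
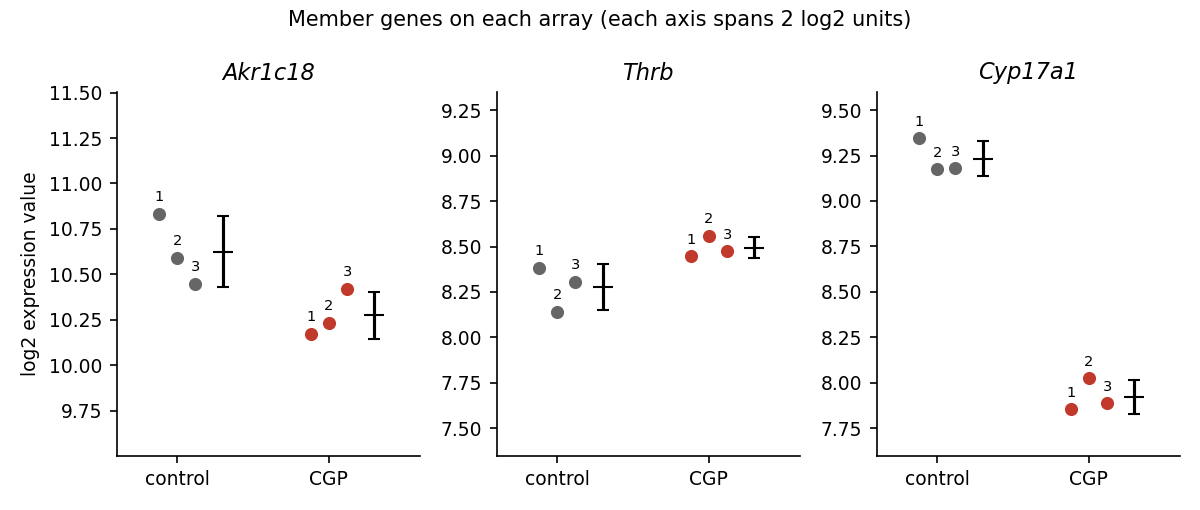
Log2 expression (vertical axes, each spanning 2 log2 units) of Akr1c18, Thrb and Cyp17a1 on the 3 Control arrays (grey) and the 3 CGP arrays (red), numbered by array, with the group mean and SD in black. The Cyp17a1 groups lie far apart (9.23 and 7.92), while those of Akr1c18 (10.62 and 10.28) and Thrb (8.28 and 8.49) do not overlap but lie close together.

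The members were next set beside markers of the other tissues that an adrenal sample could hold. These marker lists were chosen with earlier results of these data known. Hepatocyte markers were represented by 19 probe sets. All but 1 were called as lower, and their median log2 difference was -0.79. The exception was a second probe set of Fga, a fibrinogen chain, which lay at or under background on all 6 arrays, so its test cannot show a change. Their per-array median ran from 10.03 to 10.10 in Control and from 8.91 to 9.16 in CGP. Alb, serum albumin, fell by 0.42 (SE 0.05, limma adjusted p = 0.00256). Cyp7a1, which starts the conversion of cholesterol to bile acids, was lower by at least 2.525-fold, a bound because all 3 CGP arrays lay under background. Cyp17a1 fell with them, and 2 of the 19 fell further than it did. The Akr1c18 values also lay lower on the CGP arrays, by less. The part of liver RNA in the Cyp17a1 and Akr1c18 values was not tested.

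Adipocyte markers were represented by 11 probe sets, of which 10 were called as higher. Their median log2 difference was 0.54, and their per-array median was 10.86 to 10.97 in Control against 11.41 to 11.55 in CGP. Adipoq, the fat hormone adiponectin, rose by 0.54 (SE 0.04, limma adjusted p = 0.000432). The direction of Thrb was that of the adipocyte markers, and their part in it was not tested. Of the markers of kidney tubule (3 probe sets), gonad-like cells (4), medulla (6) and macrophages (6), limma called 0, and at an unadjusted p under 0.05 there was 1, a macrophage marker. Of 9 kidney tubule genes listed only 3 were tested, and of 7 gonad-like genes 4. Slc22a6 of kidney tubule and Amh of gonad-like cells lay at or under background on all 6 arrays, so their tests cannot show a change. The per-array median of the gonad-like markers was 7.11 to 7.29 in Control and 7.08 to 7.16 in CGP.

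The 8 markers of the adrenal cortex itself, which include Star, Cyp11a1, Cyp11b1 and Nr5a1, gave 0 calls by limma and 1 at an unadjusted p under 0.05. Their median log2 difference was 0.06, against -0.01 over all probe sets tested. The gland was thus recognisable by its cortical markers on all arrays, with per-array medians of 13.55 to 13.61 in Control and 13.62 to 13.67 in CGP, which did not overlap. Of the 4 zona glomerulosa markers, 3 were higher and 1 did not pass (median 0.32), and 2 of these, Cyp11b2 and Hsd3b6, recur in the lists of enzymes. The third was Vsnl1, a neuronal calcium sensor, named after its value was seen (0.30, limma adjusted p = 0.0246). Of the 4 markers, 4 were called without Control 1, 2 without Control 2, and 1, Cyp11b2, without Control 3 or any 1 of the CGP arrays.

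**Figure D2:**
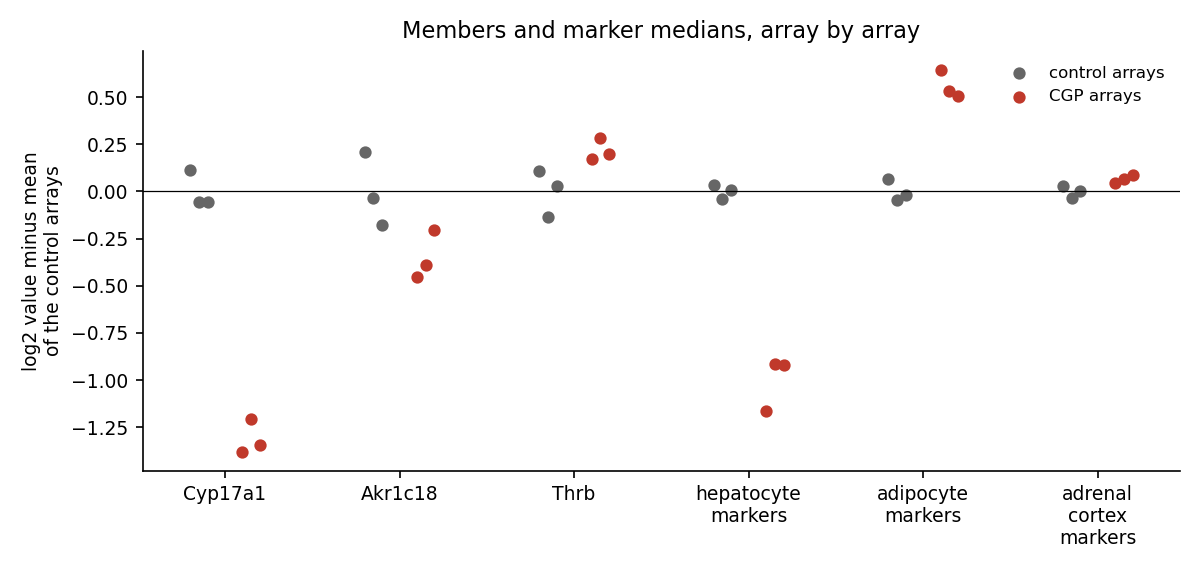
Log2 value minus the mean of the Control arrays (vertical axis) for the 3 members and for the per-array medians of hepatocyte, adipocyte and adrenal cortex markers (horizontal axis), with Control arrays in grey and CGP arrays in red. The CGP arrays fell for Cyp17a1 (-1.38 to -1.21) and the hepatocyte markers (-1.16 to -0.91), lay lower to a lesser extent for Akr1c18 (-0.45 to -0.20), and lay at 0.05 to 0.09 for the cortex markers.

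Ratios within an array compared the members with each other and with these markers in 6 contrasts. With 3 arrays against 3, an exact permutation test cannot go below p = 0.10, and every contrast reached this smallest value (two-sided, adjusted p = 0.10 over the 6). The members and marker medians used had already been seen not to overlap between the groups, so these p-values were given no weight. The log2 ratio of Cyp17a1 to Akr1c18 was lower in CGP by 0.96 on average, with CGP arrays at -1.14 to -0.82 and Control arrays at -0.10 to 0.12 around the Control mean. Against the cortex marker median, the ratio differed by -1.38 for Cyp17a1, by -0.41 for Akr1c18 and by 0.15 for Thrb. Against the hepatocyte marker median, it differed by -0.31 for Cyp17a1 and by 0.65 for Akr1c18. These sizes depend on how the marker level is taken. With each marker first centred on its own mean, a setting chosen after the data were seen, they were -0.42 and 0.54, and against the median of the markers' log2 differences (-0.79) they were -0.53 and 0.44. Cyp17a1 lay below the median of the markers and Akr1c18 above it in these 3 forms, with no overlap of the arrays in both forms taken array by array.

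The probe sets with the pattern most like each member over the 6 arrays were sought by Pearson's r, among those whose range was at least 0.5 of the member's. These are descriptions over arrays of 2 groups, in which any gene with a group difference can score high. For Cyp17a1 they were Apoh, a plasma protein (r = 0.9996), Cyp2a12, a hepatic cytochrome P450 (r = 0.999), and G6pc, the glucose-6-phosphatase of liver and kidney (r = 0.998). Apoh fell by 0.92, Cyp2a12 by 1.003 and G6pc by 0.87 on the log2 scale (limma adjusted p = 0.000111, 0.000112 and 9.68e-05). Of 207 candidates, 112 had an r above 0.9. For Akr1c18 the nearest were Osgep (r = 0.976), 2610524H06Rik (r = 0.966) and Smim20 (r = 0.963), of which none was called, and 31 of 3981 candidates exceeded 0.9. For Thrb they were Gm340 (r = 0.998), Ppip5k1, an inositol phosphate kinase (r = 0.997), and Pik3c3, the class III phosphoinositide 3-kinase (r = 0.995), none of them called, and 809 of 9305 candidates exceeded 0.9.

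Genes that regulate the X-zone or its hormone inputs mostly did not pass the test. Of 29 listed, 22 were tested. Of these, 1 was lower, 0 were higher and 21 did not pass, a share of 4.55% called against 3.53% over all probe sets, with a median log2 difference of -0.02. The gene called was Dio1, the type 1 deiodinase, which activates thyroid hormone and is abundant in liver and kidney. Its values were 6.51 in Control and 5.99 in CGP (limma adjusted p = 0.00137), but 2 Control arrays and all 3 CGP arrays lay at or under background, so no fold is given. Dio2, the type 2 deiodinase, had values of 6.36 in Control and 6.68 in CGP (limma adjusted p = 0.0737), and no difference is given because all 3 Control arrays lay under background. Nr0b1, a repressor that restrains steroidogenic factor 1, differed by -0.20 (limma adjusted p = 0.132) and Rxrb, a partner of thyroid hormone receptors, by -0.08 (limma adjusted p = 0.409). These and Dio1 were the 4 genes of the 22 tested whose groups did not overlap, against 26.3% of all probe sets. Apart from Dio1, these genes were chosen after their values were seen. Thra, the other thyroid hormone receptor, differed by -0.05 (limma adjusted p = 0.591). Inhba, the activin subunit, lay at or under background on all 6 arrays, so its test cannot show a change, and Lhcgr was not analysed here.

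Of a list of partners of Cyp17a1 and of other enzymes and regulators of the adrenal cortex, 18 were tested. Of these, 1 rose, 0 fell and 17 did not pass (5.56% called), with a median of 0.04. Cyb5a, cytochrome b5, which promotes the lyase reaction of Cyp17a1, differed by -0.01 (limma adjusted p = 0.947), and Nr5a1, the steroidogenic factor that drives the cortical enzymes, by 0.05 (limma adjusted p = 0.573). Star, which carries cholesterol into mitochondria, and the early and late enzymes Cyp11a1 and Cyp11b1 differed by 0.09, 0.05 and 0.07 (limma adjusted p = 0.318, 0.614 and 0.432). The gene called was Cyp11b2, aldosterone synthase of the zona glomerulosa, which rose by 0.50 (SE 0.05, limma adjusted p = 0.00144). Por, the electron donor of Cyp17a1, was not analysed here.

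Other aldo-keto reductases, the family of Akr1c18 and Akr1b7, gave no call. Of 8 tested, limma called 0 and 1 had an unadjusted p under 0.05, with a median difference of 0.02. Akr1c13 lay under background on all 6 arrays, so its test cannot show a change, and the differences of the others ran from -0.13 to 0.13. Akr1b8, a close relative of Akr1b7, differed by -0.11 (limma adjusted p = 0.307), and Akr1c6 was not among those tested. The Akr1c genes are closely similar in sequence, and whether their probe sets, that of Akr1c18 included, also detect their relatives was not tested.

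Other steroid enzymes were listed partly by gene name, so the list is not limited to enzymes with steroid substrates. From it, 23 genes were tested. Of these, 4 fell, 2 rose and 17 did not pass, 26.1% called against 3.53% over all probe sets, with a median of -0.02. The lower ones are known to be expressed in liver, and the hepatocyte markers fell on the same arrays. Their part in these results was not tested. Cyp3a11, a cytochrome P450 that hydroxylates steroids and drugs, was 2.00-fold lower (9.66 ± 0.27 and 8.66 ± 0.19, SD, n = 3 each, limma adjusted p = 0.00893). Hsd17b13, a lipid droplet dehydrogenase, fell by 0.62 (SE 0.05, limma adjusted p = 0.000456). Hsd17b2, which oxidises estradiol and testosterone, was at least 1.2279-fold lower and Cyp3a13 at least 1.36-fold lower (limma adjusted p = 0.00757 and 0.0180). These are bounds because 3 and 2 of their CGP arrays lay at or under background. The call of Hsd17b2 was lost without CGP 3 (limma adjusted p = 0.0526), and that of Cyp3a13 without Control 3 or CGP 2 (limma adjusted p = 0.0631 and 0.0819). The higher ones were Hsd3b6, the dehydrogenase of the zona glomerulosa (0.33, limma adjusted p = 0.0428), and Hsdl2, a peroxisomal enzyme (0.27, limma adjusted p = 0.0450, chosen after its value was seen). The call of Hsd3b6 was lost when any array other than Control 1 was omitted, and that of Hsdl2 without Control 2 or 3 or CGP 2 or 3 (limma adjusted p up to 0.189). Srd5a3, another member of the 5-alpha-reductase family, differed by -0.02 (limma adjusted p = 0.841).

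Enzymes that handle reactive aldehydes, of the kind that Akr1b7 reduces, and prostaglandins gave 0 calls among 15 tested by limma. At an unadjusted p under 0.05 there were 6, with differences from -0.27 to 0.30 and a median of -0.05. Over all probe sets, an unadjusted limma p of 0.0423 had rank 2829 of 16034 from the smallest. The groups did not overlap at 10 of the 15, against 26.3% of all probe sets. Of the 11 phosphoinositide 3-kinase genes tested, relatives of Pik3c2g, 1 was higher and 10 did not pass (9.09% called), with a median of 0.13. This was Pik3ca, the catalytic subunit alpha (0.28, SE 0.06, limma adjusted p = 0.0488), whose call was lost in each of the 6 fits that omitted 1 array (limma adjusted p up to 0.194).

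**Figure D3:**
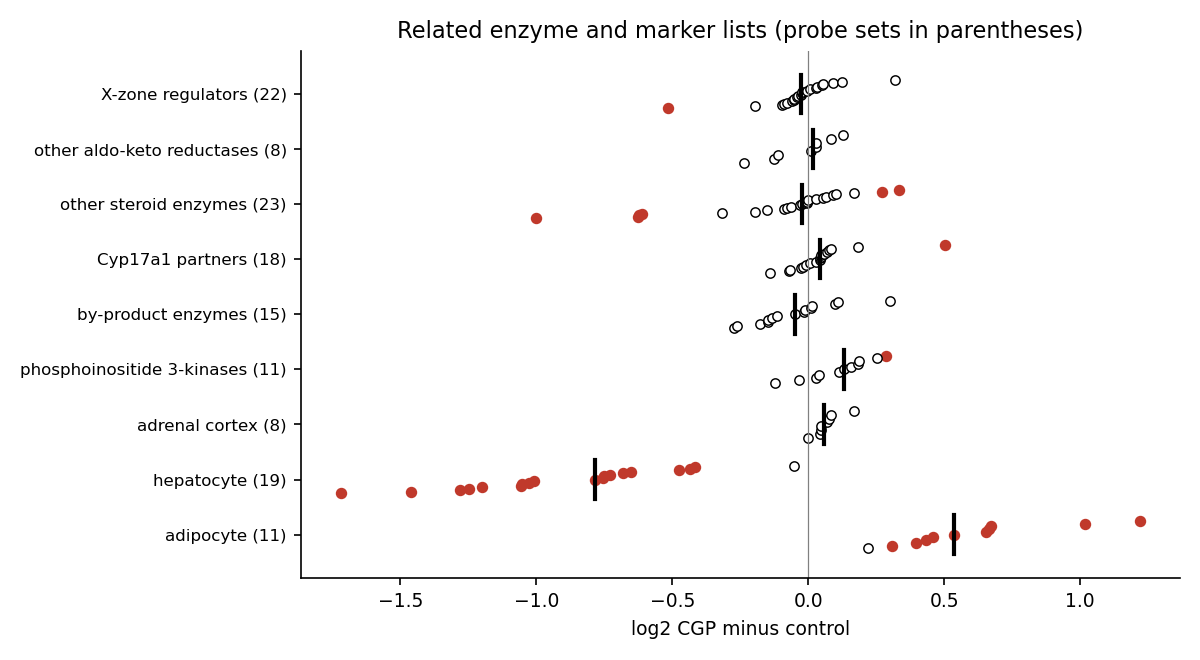
Log2 difference, CGP minus Control (horizontal axis), of each probe set in 9 gene lists (vertical axis, with the number of probe sets). Filled red marks passed at an adjusted p under 0.05, open marks did not, and black bars give medians. Among the enzyme and regulator lists, 3 probe sets lay under background on all 6 arrays. The enzyme and regulator lists centre near 0 (medians -0.05 to 0.13), while the hepatocyte markers lie to the left (-0.79) and the adipocyte markers to the right (0.54).

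Over 16 alternative fits, Cyp17a1 and Akr1c18 were lower and Thrb was higher in every fit. Cyp17a1 was called in all of them, Akr1c18 in none and Thrb with array weights. The adjusted p of Akr1c18 came nearest to the threshold at 0.0536 with a variance trend and robust prior, and at 0.0535 when arrays were shifted by the cortex markers, a setting chosen after the data were seen. Under that shift, which lowered the median of all probe sets from -0.01 to -0.08, the calls over all probe sets were 169 higher and 444 lower, in place of 311 and 255. Akr1c18 then differed by -0.41 and Thrb by 0.15.

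**Figure D4:**
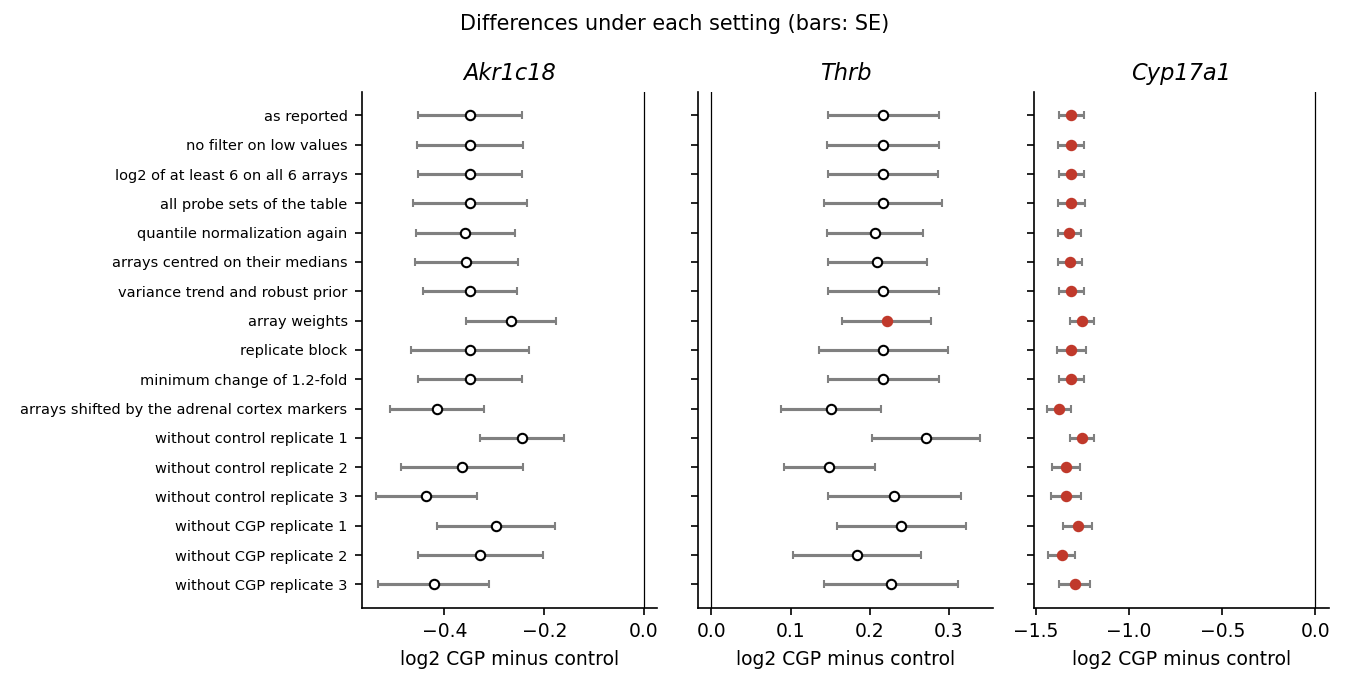
Log2 difference, CGP minus Control (horizontal axes), with its SE for Akr1c18, Thrb and Cyp17a1 as reported and under each alternative setting (vertical axis), with filled red points where the adjusted p was under 0.05. Cyp17a1 stays between -1.38 and -1.25 and is filled throughout, Thrb is filled with array weights alone, and Akr1c18 is open throughout (-0.44 to -0.24).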

How the data were processed

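The deposited table holds log2 expression values of 25150 probe sets on 6 arrays, 3 per group. Per the labels' processing notes, the authors used RMA (background correction, quantile normalisation and summary per probe set) and Partek, and no source used here gives the annotation or genome build. Values ran from 3.75 to 14.6 with array medians of 7.91 to 7.96, and were not normalised further. For arrays the number of arrays, not a read depth, limits precision. The SD of the difference between arrays over the probe sets tested was 0.135 to 0.177 among Control, 0.103 to 0.128 among CGP and 0.160 to 0.218 between groups.

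Of the probe sets, 16769 had 1 gene symbol in the platform annotation, 1031 had several and 7350 had none. Entrez numbers matched 16723 of the former to RefSeq, with 0 changed symbols. Probe sets reaching log2 6 on 3 or more arrays, whatever the group, were tested (16034, with 735 left out). All 3 member probe sets were over 6 on every array. Testing used limma 3.58.1 in R 4.3.3 (lmFit, eBayes, two-sided, no covariates), checked on simulated arrays. A bound sets each array under background at background. Named genes were all members, up to 4 called genes of each list by adjusted p, a fixed set whatever their values, and the 3 most alike per member, by Pearson's r among probe sets whose range over the arrays was at least 0.5 of the member's. Members and lists were chosen with earlier results of these data known. Plots used matplotlib 3.10.9.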

Additional observations from a re-analysis of the deposited data

How the results depend on the processing

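Each member has 1 probe set, so a mean over the probe sets of a gene could not differ. Over 16 alternative fits, 47 of 48 member values kept their side of the threshold, and the exception was Thrb with array weights (0.2213, limma adjusted p = 0.0447), which made the members called 2. The 566 calls over all probe sets became 348 with every probe set of the table, 1261 with a variance trend and robust prior, 1665 with array weights, 126 at a minimum of 1.2-fold, and 236 to 1099 when 1 array was left out. The 9 calls of the 6 lists of enzymes and regulators became 5, 17, 16 and 1 in the same fits and 5 to 10 without 1 array. Same-numbered arrays had deviations correlated at -0.36, -0.17 and -0.12, which gave no sign of pairing by number. Deviations of differently numbered arrays were not compared, so other links between arrays of the 2 groups were not tested. With the array number as a replicate block, calls fell to 224 over all probe sets and 5 in the lists, and the Cyp17a1 call held (limma adjusted p = 0.00168). Differences near 0 that were never called changed sign. With arrays shifted by the cortex markers, Nr5a1 became -0.01868, Cyp11a1 -0.01948 and Th -0.05828. Without 1 array, Cyb5a ran from -0.03485 to 0.00995, Srd5a3 from -0.04898 to 0.006517, Th from -0.004333 to 0.02807 and Inhba from -0.101 to 0.02081. The cause of these changes was not tested.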
